A study of Mus musculus with 24 samples.

Results

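The CC chemokines *Ccl2*, *Ccl5*, *Ccl7*, *Ccl8*, *Ccl11* and *Ccl20* were followed in mouse embryonic fibroblasts (MEFs) that lacked LKB1, lacked LKB1 and CRTC2, or lacked neither, with and without IL-1β. These 6 genes were chosen by name, out of 55471 genes counted, and each of the 6 was among the 17522 genes that passed the filter on low counts. *Ccl2* and *Ccl7* were abundant and rose with IL-1β in all genotypes, and both were higher in *Lkb1*-/- MEFs than in wild-type MEFs. *Ccl20* rose strongly with IL-1β in wild-type MEFs and had no counts at all in *Lkb1*-/- MEFs, whereas *Ccl11* had none in wild-type MEFs. *Ccl5* rose with IL-1β in all genotypes, and *Ccl8* stayed at the edge of detection.

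CC chemokines are small secreted proteins, named for a pair of adjacent cysteines, that bind G protein-coupled receptors on leukocytes and draw these cells along a gradient. Several of them are classical targets of NF-κB, the transcription factor that IL-1β activates, and fibroblasts are a known tissue source of the monocyte-attracting members. CCL2, CCL7 and CCL8 are monocyte chemoattractant proteins, CCL11 (eotaxin) attracts eosinophils through CCR3, CCL5 (RANTES) attracts T cells and monocytes, and CCL20 attracts lymphocytes and dendritic cells that carry CCR6.

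The libraries fell into 8 groups of 3. The cells were 3T3 MEFs, an immortalized fibroblast line, as wild-type cells, as *Lkb1*-/- cells (*Stk11* encodes the kinase LKB1), and as clones A1 and A2 of *Lkb1*-/-/*Crtc2*-/- cells, which also lack CRTC2, a coactivator of the transcription factor CREB. Each was grown without stimulus (untreated) or given IL-1β, an inflammatory cytokine, over 6 hours. The clones were made from the *Lkb1*-/- cells by CRISPR/Cas9 editing with a guide against the first exon of *Crtc2* and were grown from single cells, so that both share the loss of LKB1 and each genotype stands for 1 line or clone. A difference between genotypes therefore cannot be told apart from a difference between lines, and the p-values measure the spread between libraries, which may in part be technical.

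The libraries held 38842901 to 48594394 counts on genes (median 42431965), and levels are given in CPM, a gene's counts as a share of the library's total after TMM scaling. *Stk11* averaged 86.0 CPM (SD 1.68, n = 3) without IL-1β in wild-type cells and between 16.8 and 22.5 CPM in the 6 groups without LKB1. *Crtc2* was at 81.1 ± 1.80 CPM (SD, n = 3) in untreated *Lkb1*-/- MEFs, 42.9 ± 2.11 CPM in clone A1 and 49.8 ± 0.864 CPM in clone A2, so reads on the edited gene remained in both clones. Of 9 fibroblast markers, 6 or 7 exceeded 1 CPM in each group, with summed levels of 3930 to 7580 CPM, while *Thy1* and *Lum* had at most 3 and 10 counts in any library. In contrast, 8 markers of leukocytes and macrophages summed to 11.9 to 26.5 CPM, with *Cd14* the highest in all groups, and *Ptprc*, *Cd3e* and *Adgre1*, which define leukocytes, T cells and macrophages, were at or near 0 in all groups. Of these 8 markers, 2 exceeded 1 CPM in each wild-type group and 3 in each group without LKB1. The summed leukocyte markers were higher after IL-1β without overlap in wild-type MEFs (up to 26.5 against at most 14.4 CPM), *Lkb1*-/- MEFs (16.9 to 21.3 against 13.1 to 15.6 CPM) and clone A2 (15.7 to 17.6 against 11.9 to 14.6 CPM). *Cd14* alone averaged 9.89 CPM untreated and 18.5 CPM after IL-1β in wild-type MEFs. Its means were 8.93 and 14.0 CPM in *Lkb1*-/- MEFs and 6.24 and 8.76 CPM in clone A2. The part of these markers in the chemokine values was not tested. Endothelial markers summed to at most 3.85 CPM and epithelial markers to at most 0.447 CPM. In bulk RNA, fewer cells that express a gene and less RNA per cell cannot be told apart.

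Of the members, 5 lie on chromosome 11 of GRCm38. *Ccl2* (82035571 to 82037453, plus strand), *Ccl7* (82045712 to 82047525), *Ccl11* (82057823 to 82062955) and *Ccl8* (82115185 to 82116799) follow each other within 79.6 kb from start to start, and *Ccl5* (83525778 to 83530518, minus strand) lies 1490.2 kb from the start of *Ccl2*. *Ccl20* is on chromosome 1 (83116766 to 83119167, plus strand). Each is a protein-coding gene and its counts come from its exons. None of the stretches of 50 bases in the annotated transcripts of the 6 members occurred in a transcript of another gene, so that reads of this length could be assigned to each member despite the similarity within the family.

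RefSeq promoter sequences (GRCm38.p6) were at hand for *Ccl20* and *Ccl8*, the member with a 63.0-fold IL-1β response in wild-type MEFs and the one nearest to the detection limit. The 250 bases before the start site are shown for both, on the plus strand and 5′ to 3′, with capitals for a match to the NF-κB consensus in *Ccl20* (chr1:83116516-83116765) and for the TATA box in *Ccl8* (chr11:82114935-82115184).
Ccl20: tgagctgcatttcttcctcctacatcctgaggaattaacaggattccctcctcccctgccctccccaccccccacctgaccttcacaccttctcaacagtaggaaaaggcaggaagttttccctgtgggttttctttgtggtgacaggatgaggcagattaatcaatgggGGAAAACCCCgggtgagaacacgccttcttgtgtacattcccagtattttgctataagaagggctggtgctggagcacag
Ccl8: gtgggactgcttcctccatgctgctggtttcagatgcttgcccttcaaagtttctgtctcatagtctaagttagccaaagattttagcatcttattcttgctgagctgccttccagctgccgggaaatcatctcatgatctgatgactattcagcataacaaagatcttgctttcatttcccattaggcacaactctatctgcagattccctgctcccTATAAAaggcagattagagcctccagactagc
The NF-κB match in *Ccl20* lies on the minus strand and begins 80 bases before the start site, and 3.9% of all 32851 promoter windows of this length hold such a match on either strand. The TATA box (TATAAA, searched on the strand of the gene) begins 32 bases before the start of *Ccl8*, and 7.59% of windows hold one. Neither window holds the half-site of the CREB-binding element (TGACG, either strand, in 17.8% of windows) or an AP-1 site (TGANTCA, in 6.75% of windows), and the *Ccl8* window holds no NF-κB match. These matches describe the letters of the windows and do not show binding.

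**Figure D1:**
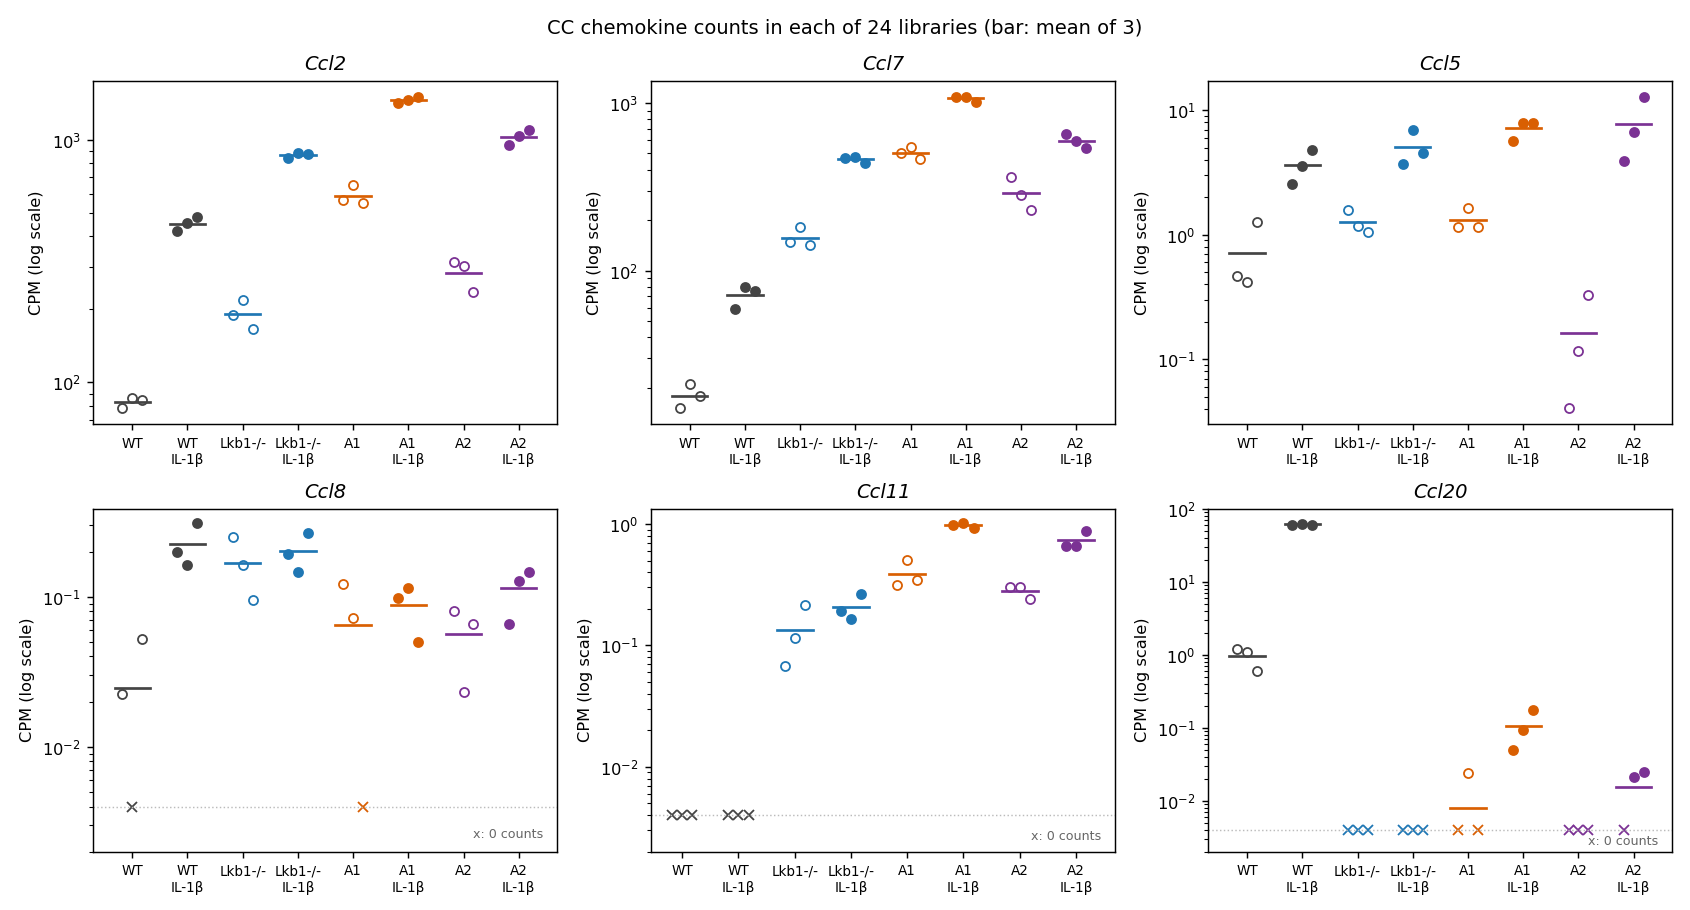
Level in CPM (log axis) of the 6 CC chemokines in each of the 24 libraries, by genotype and treatment, with open circles for untreated and filled circles for IL-1β, bars for the mean of 3 libraries and crosses on the dotted line for libraries with 0 counts. *Ccl2* reached a mean of 1466 CPM in clone A1 after IL-1β, *Ccl20* was at 61.4 CPM in wild-type MEFs after IL-1β and at 0 counts in all *Lkb1*-/- libraries, and *Ccl11* was at 0 counts in all wild-type libraries.

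The first question was which of these chemokines responded to IL-1β in each genotype. A gene was called when its FDR, the p of the quasi-likelihood test of edgeR after Benjamini-Hochberg adjustment over the 17522 genes, was under 0.05. In wild-type MEFs 5 of the 6 members were called, all higher after IL-1β, where 2.26% of all genes were called. Their median log2 fold change, leaving out *Ccl11* with no counts, was 2.44 against 0.00418 for all genes. In *Lkb1*-/- MEFs 3 of 6 were called (4.74% of all genes), in clone A1 4 of 6 (1.99%) and in clone A2 4 of 6 (5.68%), again all higher. The median log2 fold change was 1.55 (5 members), 1.32 (6) and 1.37 (5) in these genotypes, leaving out *Ccl20* where both groups were at or under the floor of 3 counts per library. With the replicate number as a block the same numbers of members were called, while the genes called rose from 396 to 1629 in wild-type MEFs, from 831 to 2601 in *Lkb1*-/- MEFs, from 348 to 1684 in clone A1 and from 995 to 3133 in clone A2.

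*Ccl2*, which attracts monocytes through CCR2, was at 78.1, 86.6 and 84.3 CPM in the untreated wild-type libraries and at 420.3, 453 and 479 CPM after IL-1β. In *Lkb1*-/- MEFs it was at 189, 219.7 and 166 CPM untreated and at 842, 883 and 871 CPM after IL-1β. Clone A1 gave 567, 649.6 and 547 CPM untreated and 1424, 1465 and 1508 CPM after IL-1β, and clone A2 gave 314, 302 and 235 CPM untreated and 952, 1039 and 1100.4 CPM after IL-1β. No library of any group overlapped with a library of another group, and untreated clone A1 libraries lay above the IL-1β-treated wild-type libraries. The log2 fold change with IL-1β was 2.44 (SE 0.11, FDR = 4.5e-12) in wild-type MEFs, 2.17 (SE 0.11, FDR = 2.0e-11) in *Lkb1*-/- MEFs, 1.32 (SE 0.10, FDR = 5.7e-08) in clone A1 and 1.86 (SE 0.11, FDR = 2.9e-10) in clone A2. The fold was thus smallest where the untreated level was highest.

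*Ccl7*, the neighbor of *Ccl2* and a ligand of CCR1, CCR2 and CCR3, had 673, 909 and 685 counts in untreated wild-type MEFs, a mean of 17.9 CPM (SD 2.95, n = 3), and was at 58.7, 79.5 and 75.6 CPM after IL-1β. It was at 147, 181 and 143 CPM in untreated *Lkb1*-/- MEFs and at 468, 478 and 439 CPM after IL-1β. Its untreated level in *Lkb1*-/- MEFs lay above the IL-1β-treated level in wild-type MEFs in every library. Clone A1 rose from 503 ± 42.0 to 1064 ± 40.9 CPM (SD, n = 3) and clone A2 from 289.9 ± 65.6 to 594 ± 57.3 CPM. In order of level, only neighboring groups overlapped, the IL-1β-treated *Lkb1*-/- libraries with the untreated clone A1 libraries and the latter with the IL-1β-treated clone A2 libraries. The log2 fold changes with IL-1β were 1.99 (SE 0.15, FDR = 3.4e-08) in wild-type MEFs, 1.55 (SE 0.14, FDR = 3.6e-07) in *Lkb1*-/- MEFs, 1.08 (SE 0.14, FDR = 8.4e-05) in clone A1 and 1.03 (SE 0.14, FDR = 6.6e-05) in clone A2.

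**Figure D2:**
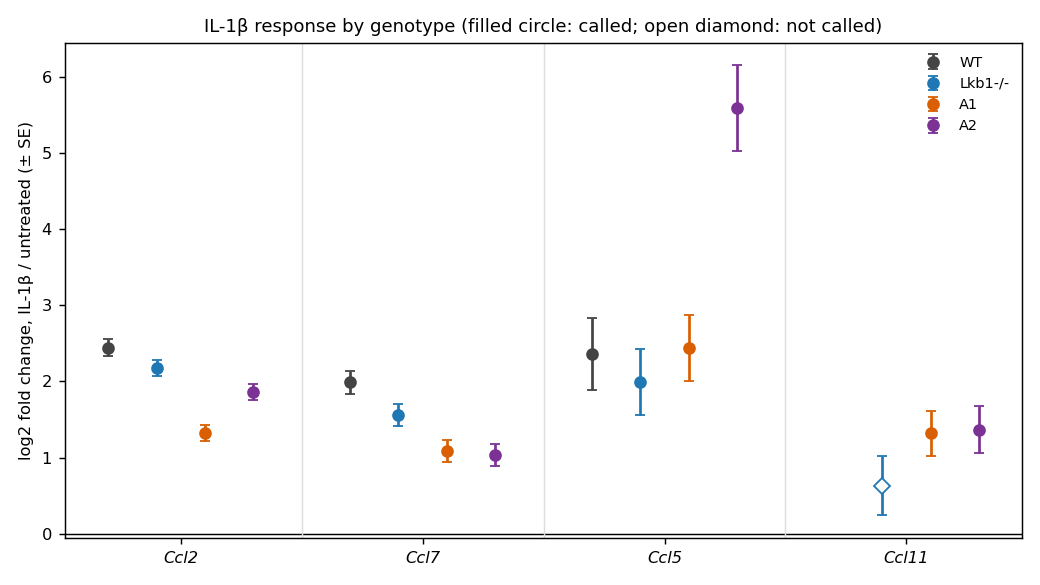
Log2 fold change with IL-1β against untreated cells (y axis, fitted value ± SE) for *Ccl2*, *Ccl7*, *Ccl5* and *Ccl11* in the 4 genotypes, with filled circles for called and open diamonds for uncalled responses. The *Ccl2* response was 2.44 in wild-type MEFs and 1.32 in clone A1, the *Ccl5* response of clone A2 was 5.59, and *Ccl11* has no value in wild-type MEFs, where it had 0 counts.

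*Ccl5* was far less abundant than *Ccl2* and *Ccl7*. It was counted 21, 18 and 49 times in untreated wild-type libraries and 104, 154 and 186 times after IL-1β, with means of 0.720 ± 0.484 and 3.66 ± 1.12 CPM (SD, n = 3). In *Lkb1*-/- MEFs it went from 1.27 ± 0.279 to 5.06 ± 1.65 CPM and in clone A1 from 1.32 ± 0.294 to 7.15 ± 1.27 CPM. Untreated clone A2 stood apart with 2, 5 and 15 counts, a mean of 0.162 ± 0.150 CPM, and IL-1β brought it to 176, 317 and 526 counts, or 7.83 ± 4.60 CPM. The IL-1β-treated libraries lay above the untreated ones in each genotype, and the log2 fold changes were 2.36 (SE 0.47, FDR = 0.0057) in wild-type MEFs, 1.99 (SE 0.44, FDR = 0.0074) in *Lkb1*-/- MEFs, 2.44 (SE 0.44, FDR = 0.0025) in clone A1 and 5.59 (SE 0.56, FDR = 1.1e-06) in clone A2. Without the third untreated library, with 15 counts, the response of clone A2 was 6.63, and without the third untreated wild-type library that of wild-type MEFs was 3.02. The call was lost in wild-type MEFs without the second untreated library (FDR = 0.061) and in *Lkb1*-/- MEFs without the second IL-1β-treated library (FDR = 0.052).

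*Ccl20* had 54, 47 and 23 counts in untreated wild-type libraries and 2480, 2663 and 2348 counts after IL-1β, or 0.963 ± 0.320 and 61.4 ± 0.741 CPM (SD, n = 3). This was a 63.0-fold rise (log2 fold change 5.98, SE 0.24, FDR = 5.7e-10), above the 5.59 of *Ccl5* in clone A2 with all libraries but below its 6.63 without 1 library. In *Lkb1*-/- MEFs no read was counted on *Ccl20* in any of the 6 libraries, where 3 counts, the floor used for a library without counts, correspond to 0.0623 to 0.0720 CPM. Clone A1 had 0, 1 and 0 counts untreated and 2, 4 and 7 counts after IL-1β, a ratio of 13.2 with a 95% counting interval of 1.98 to 561 that was not called (FDR = 0.11, and 0.019 without the filter on low counts), and clone A2 had 0 counts in 3 untreated libraries and 0, 1 and 1 counts after IL-1β. With 1 library left out, the fitted log2 response of clone A1 ran from 2.79 to 5.21, against 3.31 with all libraries.

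*Ccl11* was read in no wild-type library, treated or not. In *Lkb1*-/- MEFs it had 3, 5 and 9 counts untreated and 8, 8 and 11 after IL-1β, which overlap, with a log2 fold change of 0.63 (SE 0.39, FDR = 0.55). Clone A1 rose from 13, 21 and 15 counts to 40, 44 and 37, a log2 fold change of 1.32 (SE 0.30, FDR = 0.029), and clone A2 from 15, 13 and 11 counts to 30, 31 and 36, a log2 fold change of 1.37 (SE 0.31, FDR = 0.012). Both rises separate all treated from all untreated libraries, yet the call in clone A1 was lost in 7 of 14 alternative analyses (FDR up to 0.15), among them leaving out any of its libraries except the second untreated one, and that in clone A2 in 3 of 14 (FDR up to 0.085), among them leaving out the third untreated or the third IL-1β-treated library.

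*Ccl8* had 1, 0 and 2 counts in untreated wild-type libraries and 8, 7 and 12 after IL-1β, a ratio of 9.34 with a 95% counting interval of 2.87 to 48.1 (FDR = 0.032). This call was lost in 4 of 13 alternatives, each of which left out 1 of the 6 wild-type libraries (without the first or second untreated or the first or the third IL-1β-treated library), and without the third untreated library the log2 fold change went from 3.08 to 3.98. In the other genotypes *Ccl8* had between 0 and 11 counts in every library and its response was not called (FDR of 0.91 in *Lkb1*-/- MEFs, 0.91 in clone A1 and 0.55 in clone A2).

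Whether the responses themselves differed between genotypes was tested with interaction contrasts. Between *Lkb1*-/- and wild-type MEFs none of the 6 members was called, where 0.245% of all genes were called (43 genes, against 985 at an unadjusted p under 0.05 and 121 called by DESeq2). The difference of the log2 responses was −0.27 (SE 0.15, FDR = 0.99) for *Ccl2* and −0.44 (SE 0.20, FDR = 0.89) for *Ccl7*. For *Ccl20* no difference of fitted folds can be given, since neither *Lkb1*-/- group has counts. Between clone A1 and *Lkb1*-/- MEFs 1 of 6 was called, where 0.0285% of all genes were (5 genes, all with a smaller response in clone A1). This was *Ccl2*, whose response was smaller in clone A1 by a log2 difference of −0.86 (SE 0.15, FDR = 0.031). The call was lost in 13 of 20 alternatives (FDR up to 0.18), among them leaving out any of the 12 libraries compared except the second untreated *Lkb1*-/- library and the third untreated library of clone A1. The values behind it are an untreated level 3.07-fold and an IL-1β-treated level 1.69-fold that of *Lkb1*-/- MEFs. Between clone A2 and *Lkb1*-/- MEFs none of the 6 was called, and edgeR called 0% of all genes (0 genes, with 388 at an unadjusted p under 0.05 and 12 called by DESeq2). With the replicate block the genes called came to 311, 36 and 18 in these differences. For *Ccl5* the difference between clone A2 and *Lkb1*-/- MEFs was 3.60 (SE 0.73, FDR = 0.22), or 4.64 without the third untreated library of clone A2, which was called in 3 of 20 alternatives, among them the replicate block (3.58, FDR = 0.0100) and DESeq2 (FDR = 0.000858). The comparisons of the clones with *Lkb1*-/- MEFs share the *Lkb1*-/- libraries.

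The second question was how the loss of LKB1 changed the level of each chemokine. Of the 6 members, 4 were called higher and 1 lower in untreated *Lkb1*-/- MEFs, against 55.9% of all genes called in either direction. After IL-1β 3 were called higher and 1 lower, against 57.4% of all genes. *Ccl20* passed the filter on low counts only through wild-type libraries and *Ccl11* only through libraries without LKB1, so these counts are given as a description. The members' median log2 fold change, counting *Ccl11* and *Ccl20* at their bounds, was 1.05 untreated and 0.71 after IL-1β, against 0.0414 and 0.0325 for all genes. The shares of members called are to be read against these high shares of all genes. Markers moved with genotype too. Endothelial markers, mainly *Kdr*, were at most at 0.678 CPM in wild-type libraries and between 2.06 and 3.85 CPM in all others. Of the fibroblast markers, *Pdgfra* averaged 4.58 CPM in untreated wild-type and 342 CPM in untreated *Lkb1*-/- MEFs, *Dcn* 0.411 and 218 CPM, and *Col1a2* 780.1 and 63.0 CPM. In the untreated clones *Dcn* was at 28.6 (A1) and 22.5 CPM (A2). The part of these shifts in the chemokine differences was not tested.

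*Ccl7* had the largest fitted rise, with a log2 fold change in *Lkb1*-/- MEFs of 3.13 (SE 0.16, FDR = 3.9e-13) untreated and 2.69 (SE 0.15, FDR = 2.5e-12) after IL-1β, or 8.76-fold and 6.48-fold. Untreated *Ccl2* was 2.31-fold higher (log2 1.21, SE 0.10, FDR = 2.7e-09). *Ccl11* went from 0 counts in all 6 wild-type libraries to between 3 and 11 counts in each *Lkb1*-/- library. This is at least 1.86-fold higher untreated and at least 2.81-fold higher after IL-1β when the wild-type libraries are set to the floor of 3 counts each. *Ccl20* moved the other way and was at least 13.8-fold lower in untreated and at least 893-fold lower in IL-1β-treated *Lkb1*-/- MEFs. These bounds of *Ccl11* and *Ccl20* are a description, since each gene passed the filter only through the side where it was high. *Ccl8* was called higher in untreated *Lkb1*-/- MEFs, with 11, 7 and 4 counts against 1, 0 and 2 (ratio 7.18, 95% counting interval 2.16 to 37.5, FDR = 0.0060, fitted log2 2.69 and 3.55 without the third wild-type library), but not after IL-1β (log2 −0.16, SE 0.53, FDR = 0.82). *Ccl5* differed by 0.84 (log2, SE 0.49, FDR = 0.15) untreated, which was called without the third wild-type library (1.46, FDR = 0.027) and without the filter (0.83, FDR = 0.0042), and by 0.47 (SE 0.41, FDR = 0.34) after IL-1β.

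The changes of the members were set beside those of their chromosomes. The 1294 tested genes of chromosome 11 had a median log2 fold change of −0.126 untreated and −0.139 after IL-1β, and the 1098 tested genes of chromosome 1 of −0.293 and −0.314. The 4 other tested genes that start within 500 kb of *Ccl20* had a median of −0.246 untreated and −0.411 after IL-1β. Around *Ccl2*, *Gm31522* was the 1 tested gene within 500 kb that is no CC chemokine, and it was not called between *Lkb1*-/- and wild-type MEFs (log2 −0.45, SE 0.40 untreated and −0.18, SE 0.35 after IL-1β). What part the shifts of chromosomes and neighboring genes had in the changes of the members was not tested.

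The third question was what the further loss of CRTC2 did to chemokine levels in cells that lack LKB1. In untreated cells 3 of 6 members were called in clone A1, all higher than in *Lkb1*-/- MEFs (35.3% of all genes called), and 4 of 6 in clone A2, 3 higher and 1 lower (32.3% of all genes). After IL-1β 4 of 6 were called in clone A1, all higher (36.7% of all genes), and 1 of 6 in clone A2, also higher (32.8% of all genes). Each of these counts includes *Ccl11*, which beside the clone libraries reached the filter's cutoff in only 1 *Lkb1*-/- library. That of clone A1 after IL-1β also includes *Ccl20*, which passed the filter through wild-type libraries only. The counts are therefore a description. The members' median log2 fold change was 1.54 and 0.57 in untreated clones A1 and A2 and 0.69 and 0.36 after IL-1β, over 5 members and, in clone A1 after IL-1β, 6 with *Ccl20* at its bound, leaving out *Ccl20* where both groups were at or under the floor, against 0.0180, 0.0241, 0.00823 and 0.0131 for all genes.

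*Ccl2* was 3.07-fold higher in untreated clone A1 (log2 1.62, SE 0.11, FDR = 4.7e-10) and 1.48-fold higher in untreated clone A2 (log2 0.57, SE 0.10, FDR = 0.00025). After IL-1β the log2 fold change was 0.76 (SE 0.10, FDR = 6.7e-06) in clone A1 and 0.25 (SE 0.10, FDR = 0.066) in clone A2, and the libraries of clone A2 lay above those of *Lkb1*-/- MEFs without overlap although the gene was not called. *Ccl7* gave 1.68 (SE 0.15, FDR = 2.7e-08) and 0.88 (SE 0.14, FDR = 7.1e-05) in untreated clones A1 and A2. After IL-1β *Ccl7* gave 1.21 (SE 0.14, FDR = 1.4e-06) in clone A1 and 0.36 (SE 0.14, FDR = 0.054) in clone A2. The uncalled values of clone A2 lie close to the threshold, and with the replicate number as a block both were called (*Ccl2* 0.25, FDR = 0.021, and *Ccl7* 0.36, FDR = 0.012). In all, *Ccl2* was called in 3 of 14 alternatives, among them without the first IL-1β-treated library of clone A2 (FDR = 0.035), and *Ccl7* in 6 of 14.

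Chromosome 11 as a whole was higher in both clones. The median log2 fold change of its 1294 tested genes against *Lkb1*-/- MEFs was 0.286 in untreated clone A1, 0.336 in untreated clone A2, 0.28 in clone A1 after IL-1β and 0.343 in clone A2 after IL-1β. In clone A2 after IL-1β, *Ccl2* at 0.25 lay below and *Ccl7* at 0.36 near this chromosome median, whereas all called differences of *Ccl2*, *Ccl7* and *Ccl11* exceeded it. *Gm31522*, a noncoding RNA gene that begins 52.5 kb from *Ccl2* and was picked for its place beside *Ccl2* after its values were seen, had 10 to 171 counts per library. It was called higher than in *Lkb1*-/- MEFs in clone A1, by a log2 fold change of 1.29 (SE 0.38, FDR = 0.011) untreated and 1.39 (SE 0.34, FDR = 0.0025) after IL-1β, but not in clone A2 (0.58, SE 0.39 and 0.14, SE 0.34). It was lower in clone A2 than in clone A1 after IL-1β (−1.25, SE 0.33, FDR = 0.0067). With IL-1β it was called higher in *Lkb1*-/- MEFs (1.39, SE 0.38, FDR = 0.035) and clone A1 (1.49, SE 0.34, FDR = 0.021), while its changes in wild-type MEFs (1.12, SE 0.37, FDR = 0.15) and clone A2 (0.95, SE 0.36, FDR = 0.14) were not called. The part of the chromosome-wide and local shifts in the chemokine values was not tested.

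**Figure D3:**
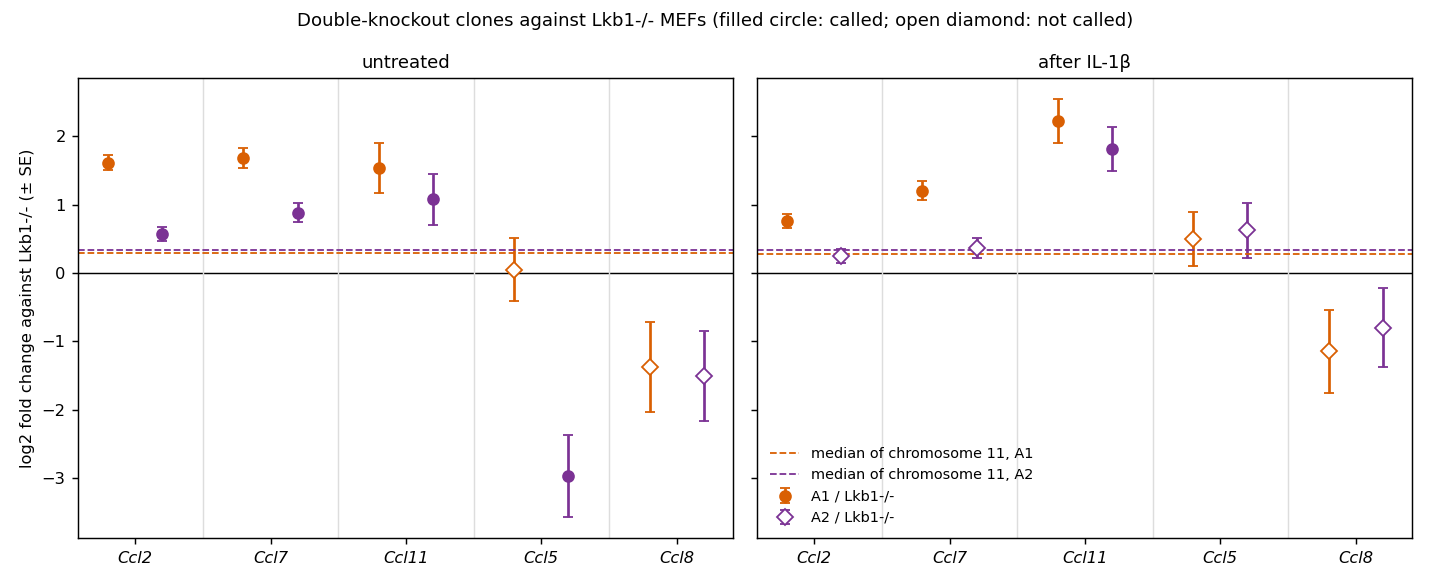
Log2 fold change of 5 chemokines on chromosome 11 in clones A1 and A2 against *Lkb1*-/- MEFs (y axis, fitted value ± SE), untreated on the left and after IL-1β on the right, with filled circles for called and open diamonds for uncalled genes and dashed lines for the median of all tested genes of chromosome 11 in each clone. *Ccl2* and *Ccl7* of clone A2 after IL-1β, at 0.25 and 0.36, lie beside the dashed line at 0.343, and *Ccl5* of untreated clone A2 lies at −2.97.

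*Ccl11* was called higher than in *Lkb1*-/- MEFs in both clones and under both treatments. In clone A1 it was 2.90-fold higher untreated (log2 1.54, SE 0.37, FDR = 0.0032) and 4.67-fold higher after IL-1β (log2 2.22, SE 0.32, FDR = 3.6e-05). In clone A2 it was 2.11-fold higher untreated (log2 1.08, SE 0.37, FDR = 0.036) and 3.52-fold higher after IL-1β (log2 1.81, SE 0.32, FDR = 0.00035). The untreated call in clone A2 was lost in 7 of 14 alternatives (FDR up to 0.21), among them leaving out the first or second untreated library of either *Lkb1*-/- MEFs or clone A2. These differences rest on at most 44 counts in a library. All clone libraries reached the filter's cutoff for *Ccl11*, but only 1 *Lkb1*-/- library, after IL-1β, did. The calls are therefore given as a description.

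*Ccl5* was the 1 member called lower, at a log2 fold change of −2.97 (SE 0.60, FDR = 0.00066) in untreated clone A2 (−3.99 without the third untreated library of clone A2) and with no call in clone A1 (0.05, SE 0.46, FDR = 0.95) or in either clone after IL-1β (0.50, SE 0.40 in clone A1 and 0.63, SE 0.40 in clone A2, the latter called without the filter, FDR = 0.021). *Ccl8* had 8 counts in all in each untreated clone against 22 in untreated *Lkb1*-/- MEFs, and no difference was called (log2 −1.37, SE 0.66 in clone A1 and −1.51, SE 0.66 in clone A2). With 1 library left out these values ran from −2.17 to −0.79 in clone A1 and from −1.84 to −1.10 in clone A2. *Ccl20* was called in clone A1 after IL-1β, with 13 counts over 3 libraries against 0, at least 1.53-fold higher than *Lkb1*-/- MEFs (FDR = 0.0032). Its level there, 0.105 ± 0.0639 CPM (SD, n = 3), compares with 61.4 CPM in wild-type MEFs after IL-1β. No library of clone A1 or of *Lkb1*-/- MEFs reached the filter's cutoff for *Ccl20*, so this call is given as a description.

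The clones also differed from each other. Of the 6 members 3 were called between them untreated, all lower in clone A2 (32.5% of all genes called), and 3 after IL-1β, again all lower in clone A2 (30.7% of all genes). *Ccl2* was lower in clone A2 by a log2 fold change of −1.05 (SE 0.10, FDR = 1.7e-07) untreated and −0.51 (SE 0.10, FDR = 0.00066) after IL-1β. *Ccl7* was lower by −0.79 (SE 0.14, FDR = 0.00019) and −0.84 (SE 0.14, FDR = 0.00011). *Ccl5* was lower untreated (−3.02, SE 0.60, FDR = 0.00053, and −4.05 without the third untreated library of clone A2) but not after IL-1β (0.13, SE 0.40, FDR = 0.86). *Ccl20* after IL-1β, with 2 counts in clone A2 against 13 in clone A1, had a ratio of 0.144 (95% counting interval 0.0157 to 0.634, FDR = 0.029), which was not called in 5 of 13 alternatives (FDR up to 0.13), 4 of them without 1 library (the second or the third of clone A1 or the first or the second of clone A2, all IL-1β-treated). No library of either clone reached the filter's cutoff for *Ccl20*, so this call is given as a description. For *Ccl11* the difference between the clones was −0.46 (SE 0.33, FDR = 0.32) untreated and −0.41 (SE 0.28, FDR = 0.31) after IL-1β.

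The balance of *Ccl7* and *Ccl2*, read within each library as the ratio of their counts, separated wild-type MEFs from all cells without LKB1. It was 0.192, 0.242 and 0.212 in untreated wild-type libraries and 0.779, 0.824 and 0.860 in untreated *Lkb1*-/- libraries. Untreated clone A1 had a ratio of 0.856 ± 0.0234 (SD, n = 3) and untreated clone A2 of 1.02 ± 0.114. With IL-1β the ratio fell in each genotype without overlap of the libraries, to 0.158 ± 0.0178 in wild-type MEFs, 0.534 ± 0.0271 in *Lkb1*-/- MEFs, 0.727 ± 0.0472 in clone A1 and 0.581 ± 0.0987 in clone A2. Each of these 4 comparisons, and that of untreated *Lkb1*-/- with wild-type MEFs, gave p = 0.1 in a two-sided exact permutation test, the smallest p that 3 against 3 libraries allow. Untreated clone A1 and *Lkb1*-/- MEFs overlapped in this ratio (p = 0.3, exact permutation test), whereas untreated clone A2 lay above *Lkb1*-/- MEFs without overlap, as did clone A1 after IL-1β (p = 0.1 each, exact permutation test). Clone A2 and *Lkb1*-/- MEFs overlapped after IL-1β (p = 0.6, exact permutation test). Per kilobase of exon, *Ccl2* exceeded *Ccl7* in untreated wild-type MEFs (72.9 ± 3.87 against 22.4 ± 3.68 CPM per kb, SD, n = 3). Mean *Ccl7* exceeded mean *Ccl2* in untreated clone A1 (628 ± 52.4 against 517 ± 47.7 CPM per kb). The order was the same in untreated *Lkb1*-/- MEFs (196 ± 26.1 against 168 ± 23.6) and clone A2 (362 ± 81.8 against 249 ± 37.3). All annotated exons were counted, 1138 bases for *Ccl2* and 801 for *Ccl7*. In clone A1 the order rests on these lengths, since its count ratio was 0.856.

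**Figure D4:**
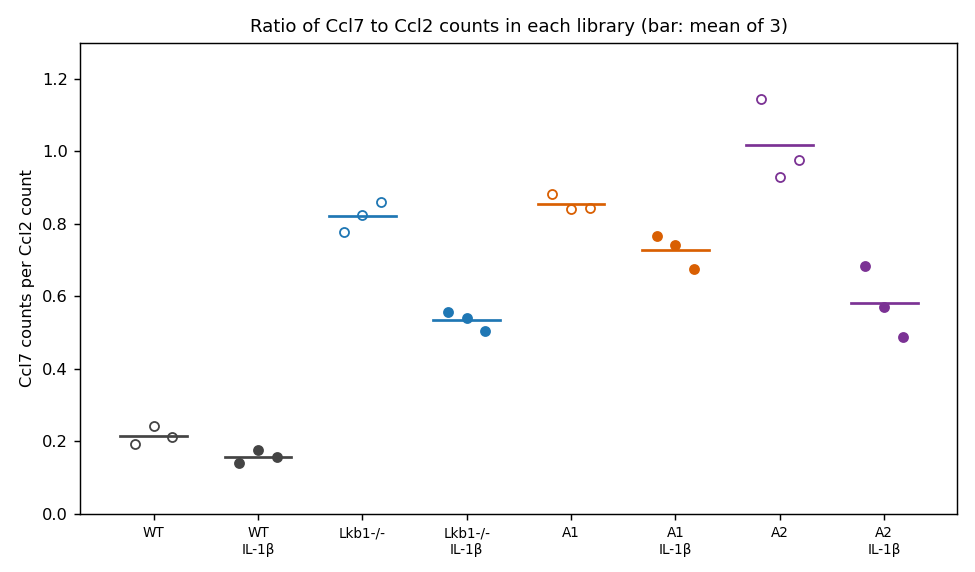
Number of *Ccl7* counts per *Ccl2* count (y axis, linear from 0) in each of the 24 libraries, with open circles for untreated and filled circles for IL-1β and bars for the mean of 3 libraries. The wild-type libraries lie between 0.140 and 0.242, all other libraries lie between 0.489 and 1.15, and the ratio is lower after IL-1β in each genotype.

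*Ccl2* and *Ccl7* made up most of the counts of the CC chemokine family. Of 21 mouse CC chemokine genes 11 passed the filter on low counts, and their summed level was 114 to 128 CPM in untreated wild-type libraries and 2555 to 2589 CPM in clone A1 after IL-1β. *Ccl2* held 67.8% to 68.6% of the family's counts in untreated wild-type MEFs and 49.7% to 51.7% in untreated *Lkb1*-/- MEFs, where *Ccl7* held 40.3% to 42.7%. *Ccl20* held 9.40% to 10.8% of them in wild-type MEFs after IL-1β and at most 0.00682% in any library without LKB1.

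Of the 15 family genes that were not followed above, 4 had a group mean over 1 CPM, namely *Ccl9*, *Ccl25*, *Ccl27a* and *Ccl28*. None of these was called with IL-1β in any genotype (FDR between 0.26 and 0.99). *Ccl9*, a ligand of CCR1, was called higher than in *Lkb1*-/- MEFs in both clones, from 3.26 ± 0.841 to 7.95 ± 0.878 CPM in untreated clone A1 (log2 1.29, SE 0.24, FDR = 0.00029) and to 5.73 ± 0.858 CPM in untreated clone A2 (log2 0.81, SE 0.24, FDR = 0.014). *Ccl27a*, a ligand of CCR10, was 3.08-fold higher in untreated *Lkb1*-/- than in wild-type MEFs (3.56 ± 0.144 against 1.15 ± 0.140 CPM, FDR = 2.2e-06). *Ccl25*, a ligand of CCR9, differed less, by a log2 fold change of 0.52 (SE 0.21, FDR = 0.043) in the same comparison. *Ccl28*, a ligand of CCR10 and CCR3, had 27 to 42 counts in untreated *Lkb1*-/- libraries, 4 to 11 in untreated clone A1 (log2 −1.95, SE 0.35, FDR = 0.00023) and 0 in all 3 untreated clone A2 libraries (FDR = 8.1e-08).

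No receptor of these chemokines was expressed at a testable level. Of 14 CC chemokine receptor genes none passed the filter on low counts, and the most abundant, *Ackr2*, had 38 counts over all 24 libraries. *Ccr2* had 9 counts in all, and *Ccr3* and *Ccr6* had 0. As a check of the stimulation, 5 of 6 early NF-κB response genes (*Nfkbia*, *Tnfaip3*, *Nfkb2*, *Icam1*, *Irf1* and *Zc3h12a*) were called higher with IL-1β in wild-type MEFs, 5 in *Lkb1*-/- MEFs and 4 in each clone.

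The genes outside the 6 members whose log2 CPM followed each member most closely over the 24 libraries were listed, among 11346 genes with a mean log2 CPM above 1. For *Ccl2* these were *Gypc* (Pearson r = 0.96), *Pik3r5* (0.96) and *Tnfaip3* (0.96), and for *Ccl7* *Armc2* (0.96), *Zfp36l1* (0.96) and *Creb5* (0.96). *Ccl11* was followed most closely by *Zfp36l1* (0.97), *Ubb* (0.96) and *Ccn5* (0.96). *Ccl5* had *Cebpd* (0.88), *Nfkb1* (0.85) and *Cxcl1* (0.85), *Ccl20* had *Hacd2* (0.94), *Efl1* (0.94) and *Mogs* (0.93), and *Ccl8*, near its detection limit, had *Slc31a2* (0.83), *Znrf1* (0.72) and *Zfp869* (0.72). Among the members, r was highest between *Ccl7* and *Ccl11* (0.92) and between *Ccl2* and *Ccl7* (0.87), and lowest between *Ccl11* and *Ccl20* (−0.70). These values are descriptions over libraries that fall into 8 groups and share genotype and treatment.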

How the data were processed

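RNA-seq was analysed in 24 libraries of 8 groups, 3 per group, with genotype, treatment and replicate taken from the labels. The authors trimmed reads with Trim Galore 0.6.0, aligned them with STAR 2.7.8a to GRCm38 and deposited raw counts of each gene, unnormalized, under the strand settings of STAR. The methods of the paper name a library kit that removes ribosomal RNA, the labels give SMARTER mRNA-Seq instead, and which was used is not settled. Counts of the second strand setting, which held 95.5% to 96.0% of stranded pairs, were used. The 4 lines that name no gene held 26.7% to 34.4% of pairs and were left out. Symbols came from gene identifiers (55144 of 55471 matched) and positions from GENCODE M21 on the same build.

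Genes were filtered with filterByExpr (minimum count 10, total 15), which for *Ccl8* rested on 3 libraries, for *Ccl20* on the 6 wild-type ones and for *Ccl11* on 13 without LKB1. The older quasi-likelihood test of edgeR 4.0.16 (R 4.3.3, limma 3.58.1) was fitted to all 24 libraries with TMM scaling and 1 coefficient per group, after the paper's methods, and 15 contrasts were tested. The common biological coefficient of variation was 0.129. SE is the log2 fold change divided by the square root of F. Against a group at 0, folds are bounds at 3 counts per library (0.0604 to 0.0782 CPM), and counting intervals are exact binomial at 95% and cover counting error only. Replicate pairs differed beyond counting noise (chi-square per gene 7.41 to 106), so all libraries were counted as separate. Same-numbered libraries deviated from their group means together, with all 84 correlations above 0 (0.036 to 0.59, median 0.22). Every pair was over 0.1 in 9 of the 12 comparisons of groups, among them the 4 IL-1β responses, and 157 of 168 matches of a library with another group were closest at its own number. The share of pairs on no gene was highest at number 1 and lowest at number 3 in 8 of 8 groups. The labels do not say what a number shares, so the pairing comes from the data, and the numbers were also fitted as a block.

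The members and lists were chosen with earlier results of these data known. The named genes were the 6 members, other CC chemokines above 1 CPM in a group, CC receptors likewise, 6 stimulation genes, *Stk11*, *Crtc2* and, for each member, the 3 genes with the highest correlation. Outside this rule, *Gm31522*, single cell type markers and some receptors that stayed under 1 CPM were named too. Alternatives were unstranded counts, DESeq2's and upper quartile normalization, no filter, edgeR's newer test, the replicate block, DESeq2 1.42.0, only the groups compared, CPM without TMM factors, and leaving out each library.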

Additional observations from a re-analysis of the deposited data

Results flagged for a closer look

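*Ccl2* was the 1 member whose response to IL-1β was called different between genotypes in the edgeR fit of all libraries, while DESeq2 called *Ccl5* for clone A2 against *Lkb1*-/- MEFs and *Ccl20* for *Lkb1*-/- against wild-type MEFs, the replicate block called *Ccl5* too, and the fit without a filter called *Ccl5* for clone A2 and *Ccl7* for both clones. The log2 response of *Ccl2* was 2.17 in *Lkb1*-/- MEFs and 1.32 in clone A1, a difference of −0.86 (SE 0.15, edgeR FDR = 0.031), and its level was higher with IL-1β in 3 of 3 libraries of each. The direction was the same in 20 of 20 alternatives, with values between −0.97 and −0.76, and the call was lost in 13 of them.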

How the results depend on the processing

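Of 79 comparisons of a member that allow a fold, 44 were called, 36 of them under every alternative that tested the gene, and 35 were not called, 27 of them under none that did. In the fit of only the groups compared, 20 of the 79 could not be tested, since the gene did not pass the filter there, and 4 of these are among the 36 (*Ccl8* and *Ccl11* in untreated and *Ccl11* in IL-1β-treated *Lkb1*-/- against wild-type MEFs, and *Ccl20* in clone A1 against *Lkb1*-/- MEFs after IL-1β). With the replicate block, genes called with IL-1β came to 1629, 2601, 1684 and 3133 in wild-type MEFs, *Lkb1*-/- MEFs, clone A1 and clone A2, and those whose response differed to 311 (*Lkb1*-/- against wild-type MEFs), 36 (clone A1 against *Lkb1*-/- MEFs) and 18 (clone A2 against *Lkb1*-/- MEFs). The block called 3 members in clone A2 against *Lkb1*-/- MEFs after IL-1β (*Ccl2* at 0.25, FDR = 0.021, *Ccl7* at 0.36, FDR = 0.012, and *Ccl11*) and 1 member in the last response difference, *Ccl5*, and changed no other call of a member. Of 84 correlations between same-numbered libraries 69 were over 0.1, and not every pair was in untreated *Lkb1*-/- against wild-type MEFs, clone A1 against *Lkb1*-/- MEFs and clone A2 against A1, where the pairing by number is a hint from the data only.

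Without the filter, which lets in many genes with low counts, 954, 1428, 908 and 1643 genes were called with IL-1β in the same order of genotypes and 347, 141 and 68 in the response differences, with 4 members in clone A2 against *Lkb1*-/- MEFs after IL-1β, where 1 was called with the filter, and 2 members in each response difference of a clone (*Ccl2* and *Ccl7* in A1, *Ccl5* and *Ccl7* in A2). DESeq2 called 624 genes in wild-type MEFs and 573 in clone A1 with IL-1β, 121, 12 and 12 genes in the response differences, 2 members in clone A2 against *Lkb1*-/- MEFs after IL-1β, and 1 member in the response differences of *Lkb1*-/- MEFs (*Ccl20*, whose 0 counts there allow no fold) and of clone A2 (*Ccl5*). Unstranded counts gave 2 members in clone A2 against *Lkb1*-/- MEFs after IL-1β, and for the response difference of clone A1 3 genes and 0 members. Upper quartile normalization gave 76, 3 and 1 genes in the response differences and 0 members for clone A1. The newer quasi-likelihood test called 2 members in clone A2 against *Lkb1*-/- MEFs after IL-1β. Fitting only the groups compared gave 246 genes for the IL-1β response of clone A2, 70 genes for the first response difference with 0 members for that of clone A1, 3 members in untreated *Lkb1*-/- against wild-type MEFs, without the untested *Ccl8* and *Ccl11*, and 2 in clone A2 against *Lkb1*-/- MEFs after IL-1β. In clone A2 against *Lkb1*-/- MEFs after IL-1β, all genes called lay between 4362 and 8163 over the alternatives, with 6134 by DESeq2. In the main fit 5755 of 17522 genes were called there. The member counts of this comparison are to be read against these numbers. The causes were not tested.

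Leaving out 1 library moved the genes called with IL-1β to 203 to 412, 544 to 763, 197 to 233 and 679 to 1890, the members called with IL-1β in wild-type MEFs to 3 to 5, the members called in clone A2 against *Lkb1*-/- MEFs after IL-1β to 1 to 2, and the response differences to 23 to 57, 0 to 4 (0 to 1 members) and 0 to 1 genes. Directions turned only in comparisons that were not called. For *Ccl8* these were the responses of *Lkb1*-/- MEFs (−0.053 to 0.62) and clone A1 (−0.13 to 1.25), their difference (−0.36 to 1.03), *Lkb1*-/- against wild-type MEFs after IL-1β (−0.42 to 0.11) and untreated clone A2 against A1 (−0.72 to 0.66). For *Ccl5* these were untreated clone A1 against *Lkb1*-/- MEFs (−0.15 to 0.26) and clone A2 against A1 after IL-1β (−0.44 to 0.45). At this depth *Ccl8*, *Ccl11* and *Ccl20* without LKB1 rest on at most 44 counts per library.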
